A study of Homo sapiens with 6 samples.

Results

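SNAI2 (SLUG) and 9 other genes of the epithelial-mesenchymal transition (EMT) were followed in HEK-293T, an established human kidney-derived line. The 10 genes, of 62348 listed in the count tables, were the Snail factors SNAI1, SNAI2 and SNAI3, the TWIST and ZEB factors TWIST1, TWIST2, ZEB1 and ZEB2, the mesenchymal filament gene VIM, and the epithelial genes EPCAM and GRHL2. SNAI2 was chosen because its level fell in these libraries, so its difference is given as a description with no test. The other 9 were chosen by name as EMT factors and markers. They and the further gene lists below were chosen with earlier results of these data known. RNA-seq was made from 3 wild-type (WT) libraries of cells with a non-targeted guide RNA and 3 libraries of cells with a C17orf80 guide RNA, labelled C17orf80 knockout. C17orf80 encodes a protein of mitochondrial nucleoids. The knockout line was made with CRISPR/Cas9 and selected as monoclonal cells in puromycin. How many clones or separate cultures stand behind the libraries of a group was not stated. The p-values therefore measure variation among these 6 libraries alone, possibly technical, and differences between clones and effects of the guide cannot be told apart.

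EMT is the programme by which cells held together by junctions lose them and take on a migratory, matrix-producing state, as neural crest and early mesoderm cells do. Snail factors are zinc finger repressors that bind E-box sequences and recruit histone deacetylases and other corepressors to junction genes such as CDH1. ZEB factors act on the same kind of site, TWIST factors are helix-loop-helix proteins, and GRHL2 and the OVOL and ESRP proteins maintain the epithelial state.

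Gene counts per library lay between 14982340 and 16278091. The targeted gene, C17orf80, went against the label: WT replicates 1 to 3 had 397, 451 and 476 counts and the knockout-labelled replicates 763, 699 and 698 (log2 fold change 0.78 ± 0.17, standard error, edgeR adjusted p = 0.0232). Gene-level counts cannot show whether its reading frame was disrupted, so the groups are named by their labels throughout. Knockout-labelled replicate 1 stood apart. Across genes its log2 levels had a Pearson's r of 0.932 with replicate 2 and 0.945 with replicate 3 of its group, against 0.987 between those, and mitochondrial genes took 11.9% of its counts, against 4.53% to 5.00% elsewhere. Results that rest on it are given with and without it. Of 9 listed genes of the HEK-293 line 7 were tested. WT1 rose, NEFL and EYA1 fell and 4 did not pass edgeR at an adjusted p under 0.05, where 15.1% of all tested genes passed in either direction. Their levels in CPM (counts relative to the TMM-scaled library size) are given at the end. Of 12 stromal, endothelial and blood markers, CDH5, PTPRC, CD68 and HBB had 0 counts in all libraries, and the list summed to 4.62 to 5.27 CPM in WT and 6.43 to 8.28 CPM in the knockout-labelled libraries.

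SNAI2 (ENSG00000019549, chromosome 8, positions 48917598 to 48921429 on GRCh38) stood at 171, 158 and 175 CPM in WT replicates 1 to 3 and 15.2, 11.8 and 12.6 CPM in knockout-labelled replicates 1 to 3. The transcript was low in each knockout-labelled library, replicate 1 included, and the groups lay far apart. Group means were 168 ± 8.74 CPM and 13.2 ± 1.75 CPM (SD, n = 3), a 12.8-fold lower level, or a log2 fold change of -3.67 ± 0.16. The transcript was not lost, since 205, 195 and 209 counts remained, of 2636, 2665 and 2854 in WT. The log2 fold change lay between -3.78 and -3.60 under every alternative setting tried.

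**Figure D1:**
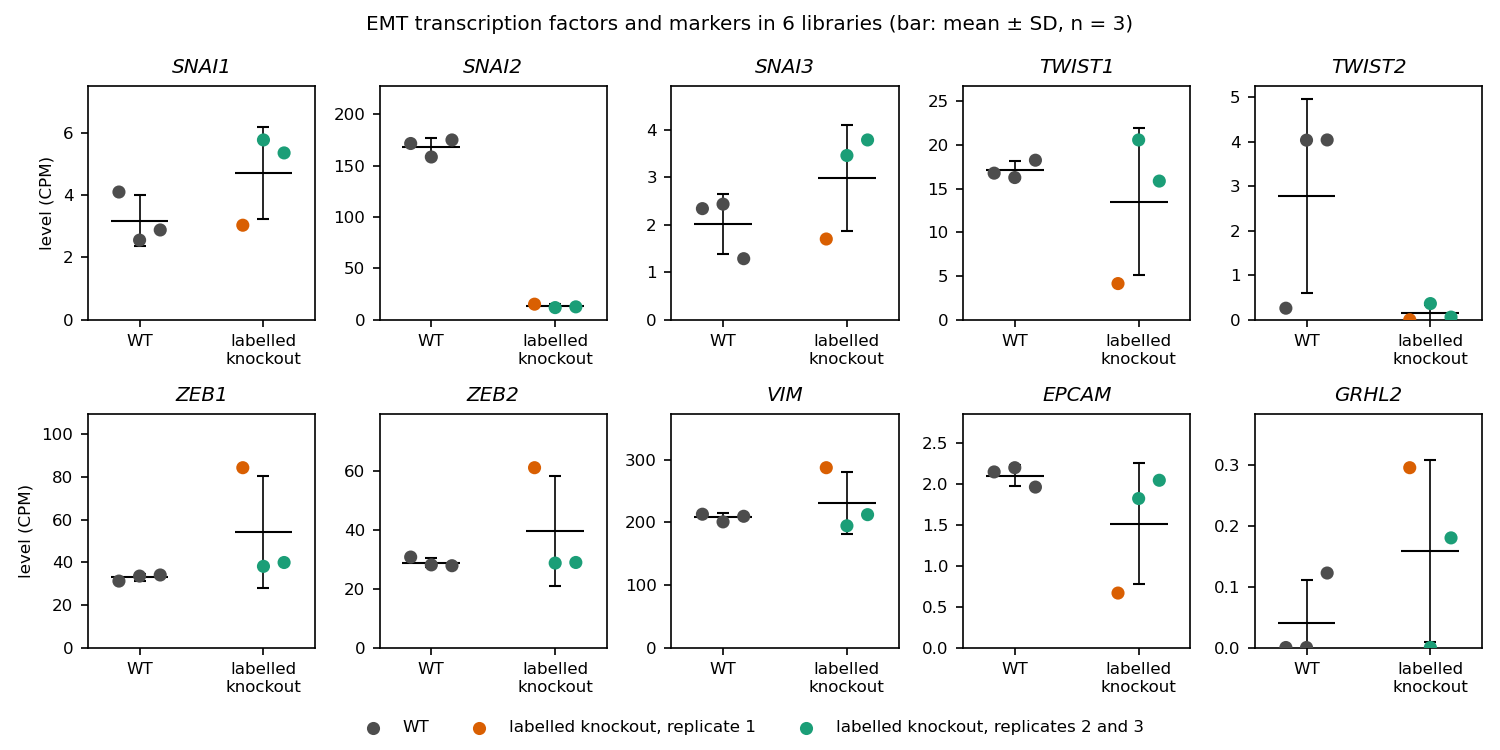
Level in CPM of each of the 10 EMT genes (one panel per gene, each axis from 0) in the WT libraries and the knockout-labelled libraries; points are libraries, bars are mean ± SD. SNAI2 goes from 158 to 175 CPM to 11.8 to 15.2 CPM, whereas knockout-labelled replicate 1 departs from replicates 2 and 3 for SNAI1, SNAI3, TWIST1, ZEB1, ZEB2, VIM and EPCAM.

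The other EMT factors did not share this difference at the threshold of the test over all 6 libraries. Of the 10 genes 8 had enough counts to be tested, and TWIST2 and GRHL2 did not. Of the 7 tested beside SNAI2, 0 passed (edgeR quasi-likelihood test, Benjamini-Hochberg adjusted p from 0.158 for ZEB1 to 0.660 for TWIST1), where 15.1% of all 17452 tested genes passed in either direction. Counted at a raw p under 0.05, edgeR and limma-voom had 0 of them in each direction and DESeq2 had 1 higher and 0 lower, and both DESeq2 and limma-voom had 0 after adjustment. This does not show that the levels were alike, because knockout-labelled replicate 1 widened the spread of several genes.

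SNAI1, the Snail factor best known as an early trigger of EMT, stood at 4.096, 2.55 and 2.88 CPM in WT and 3.03, 5.77 and 5.35 CPM in knockout-labelled replicates 1 to 3. Replicates 2 and 3 lay above all WT libraries and replicate 1 among them (log2 fold change 0.58 ± 0.33, edgeR adjusted p = 0.263). Values in parentheses with an error are log2 fold changes with standard errors from here on. SNAI3, the third Snail paralogue, had the same arrangement, at 2.34, 2.44 and 1.29 CPM and 1.701, 3.46 and 3.79 CPM (0.57 ± 0.41, edgeR adjusted p = 0.36). Without knockout-labelled replicate 1 both passed, at 0.82 for SNAI1 (edgeR adjusted p = 0.00972) and 0.85 for SNAI3 (edgeR adjusted p = 0.0308), in a comparison that called 22.3% of genes higher and 21.7% lower. SNAI3 overlaps SNAI3-AS1, which had 83 to 94 counts in WT and 44 to 104 in the knockout-labelled libraries. Whether counting used strand is not stated, so reads of such overlapping genes cannot be told apart.

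TWIST1, a mesodermal factor, stood at 16.8, 16.3 and 18.3 CPM in WT and 4.14, 20.6 and 15.9 CPM in knockout-labelled replicates 1 to 3. Replicates 2 and 3 fell on either side of the WT libraries and replicate 1 alone was low. The log2 fold change was -0.33 ± 0.49 (edgeR adjusted p = 0.66), and 0.099 without replicate 1.

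TWIST2, its close paralogue, gave 4, 68 and 66 counts for the WT replicates and 0, 6 and 1 counts for the knockout-labelled ones. WT replicate 1 thus sat with the knockout-labelled libraries and not with the other WT libraries, and the gene missed the filter on low counts. Without WT replicate 1 TWIST2 was tested and passed (log2 fold change -4.71 ± 0.83, edgeR adjusted p = 0.0383). It also passed without knockout-labelled replicate 1 (edgeR adjusted p = 0.000584) and with no low-count filter (edgeR adjusted p = 0.00203). It did not pass without knockout-labelled replicate 2 or 3 (edgeR adjusted p = 0.0569 and 0.145), and without WT replicate 2 or 3 it again missed the filter.

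ZEB1, a repressor of CDH1 and of the miR-200 genes, stood at 31.1, 33.5 and 34.00 CPM in WT and 84.3, 38.1 and 39.9 CPM in knockout-labelled replicates 1 to 3. Each knockout-labelled library lay above each WT library, an arrangement that 23.5% of the tested genes had. The log2 fold change of 0.72 ± 0.31 did not pass (edgeR adjusted p = 0.158), and it was 0.25 without replicate 1 (edgeR adjusted p = 0.031). ZEB1 overlaps ZEB1-AS1, which had 148 to 187 counts in WT and 104 to 158 in the knockout-labelled libraries. Its paralogue ZEB2 stood at 30.7, 28.03 and 27.8 CPM and 61.01, 28.6 and 28.9 CPM. Replicate 1 was high, and replicates 2 and 3 lay within the WT range (0.45 ± 0.31, edgeR adjusted p = 0.333). Without replicate 1 the change was 0.0051.

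VIM, the intermediate filament protein of mesenchymal cells, stood at 213, 201 and 209.8 CPM in WT and 287, 195 and 212 CPM in knockout-labelled replicates 1 to 3. The groups overlapped (0.15 ± 0.17, edgeR adjusted p = 0.558), and without replicate 1 the change was -0.022. EPCAM, an epithelial adhesion molecule, stood at 2.15, 2.198 and 1.96 CPM and 0.666, 1.82 and 2.04 CPM. It was lowest in replicate 1 and overlapped WT in replicate 3 (-0.46 ± 0.43, edgeR adjusted p = 0.478), and without replicate 1 the change was -0.11. GRHL2, a factor that keeps epithelial genes on, had 0, 0 and 2 counts in WT and 4, 0 and 3 in the knockout-labelled replicates, too few for a fold change. VIM overlaps VIM-AS1, which had 26 to 53 counts per library.

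Genes that SNAI2 is reported to repress were read next. Of 8 listed 7 were tested, 3 rose, 0 fell and 4 did not pass edgeR, against a background of 8.64% of all tested genes higher and 6.5% lower. The list's median log2 fold change was 0.50, against 0.0055 over all genes. CLDN1, a claudin of tight junctions, stood at 0.6502, 0.416 and 0.429 CPM in WT and 5.99, 4.73 and 6.25 CPM in knockout-labelled replicates 1 to 3. It was low in all WT libraries and 11.4-fold higher in the others (3.49 ± 0.31, edgeR adjusted p = 0.000997). OCLN, the tight junction protein occludin, stood at 3.901, 2.02 and 2.57 CPM and 8.58, 6.43 and 7.33 CPM (1.39 ± 0.30, edgeR adjusted p = 0.023). DSP, the desmosomal plaque protein desmoplakin, stood at 173, 182 and 167 CPM and 723, 359.8 and 342 CPM (1.45 ± 0.30, edgeR adjusted p = 0.0201). Replicate 1 was the highest, and without it the change was 1.02 (edgeR adjusted p = 2.45e-12). For CLDN1, OCLN and DSP each knockout-labelled library lay above each WT library, as in 23.5% of all tested genes.

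CDH1, which encodes E-cadherin and is the best known Snail target, stood at 5.14, 5.35 and 5.45 CPM in WT and 6.58, 7.102 and 7.33 CPM in knockout-labelled replicates 1 to 3. Its groups did not overlap either, an arrangement common to that 23.5% of tested genes. The log2 fold change of 0.40 ± 0.19 did not pass (edgeR adjusted p = 0.182, and 0.0675 without replicate 1). KRT8, a keratin of simple epithelia, stood at 70.03, 66.1 and 67.5 CPM and 65.2, 124 and 97.5 CPM, with replicate 1 below the WT libraries (0.50 ± 0.23, edgeR adjusted p = 0.181), and passed without that replicate (0.72, edgeR adjusted p = 2.37e-07). The vitamin D receptor gene VDR was at 19.2 to 21.7 CPM in WT and 24.6 to 29.5 CPM in the knockout-labelled libraries (0.41 ± 0.15, edgeR adjusted p = 0.103), and passed without replicate 1 (0.49, edgeR adjusted p = 0.000588). The apoptosis gene BBC3 (PUMA) was at 25.8 to 28.2 CPM in WT and 5.62, 27.2 and 20.1 CPM (-0.62 ± 0.48, edgeR adjusted p = 0.396), with a change of -0.19 without replicate 1. Without replicate 1, 5 of the 7 tested genes rose and 0 fell, in the comparison that called 22.3% of genes higher. KRT19 had at most 2 counts in a library. CLDN1 passed whichever library was left out, OCLN did not without WT replicate 2 or 3 or knockout-labelled replicate 3, and DSP did not without any 1 of the WT libraries.

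Promoters of 4 genes that rose are shown because Snail factors bind the E-box CAGGTG, which reads CACCTG on the other strand. Both were searched in the 250 bases before the annotated start, from RefSeq on GRCh38.p14, and matches are in capitals. The windows are DSP at chr6:7541421-7541670 (plus strand), OCLN at chr5:69492297-69492546 (plus strand), FOXA1 at chr14:37595250-37595499 (minus strand) and CLDN1 at chr3:190322447-190322696 (minus strand), each written 5′ to 3′.
DSP: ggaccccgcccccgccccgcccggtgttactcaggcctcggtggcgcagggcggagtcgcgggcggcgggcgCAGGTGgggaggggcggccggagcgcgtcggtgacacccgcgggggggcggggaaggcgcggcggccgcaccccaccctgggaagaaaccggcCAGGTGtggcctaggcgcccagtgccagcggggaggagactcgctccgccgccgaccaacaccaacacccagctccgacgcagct
OCLN: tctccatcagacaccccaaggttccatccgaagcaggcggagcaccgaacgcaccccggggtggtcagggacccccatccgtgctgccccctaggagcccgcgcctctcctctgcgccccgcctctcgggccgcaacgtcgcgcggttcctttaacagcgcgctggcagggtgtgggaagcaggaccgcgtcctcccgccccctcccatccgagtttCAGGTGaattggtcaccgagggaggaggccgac
FOXA1: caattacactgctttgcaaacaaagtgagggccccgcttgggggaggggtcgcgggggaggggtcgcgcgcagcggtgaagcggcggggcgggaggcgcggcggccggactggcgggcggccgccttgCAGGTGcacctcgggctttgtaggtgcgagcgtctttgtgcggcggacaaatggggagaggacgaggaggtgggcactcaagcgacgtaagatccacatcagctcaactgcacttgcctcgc
CLDN1: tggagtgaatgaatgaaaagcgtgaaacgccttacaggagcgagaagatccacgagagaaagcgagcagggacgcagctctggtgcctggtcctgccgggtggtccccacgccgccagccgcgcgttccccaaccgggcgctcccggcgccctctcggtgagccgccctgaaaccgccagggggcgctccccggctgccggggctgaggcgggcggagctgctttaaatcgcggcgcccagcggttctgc
DSP holds 2 E-boxes, beginning 178 and 85 bases before its start. OCLN holds 1 at 33 bases in this window, 1 of its 2 annotated windows, and FOXA1 holds 1 at 122 bases. CLDN1 holds none in this window.

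Over the whole promoter table, 17.5% of 35116 windows of this length held such an E-box. The epithelial markers described next had promoters for 33 of 55 genes, and 26 of their 50 windows, or 52%, held one. Of the mesenchymal markers 41 of 56 genes had promoters, with an E-box in 7 of 61 windows, or 11.5%. Of 14 tested epithelial genes with an E-box 4 rose and 0 fell, and of 7 without one 3 rose and 0 fell. Over all tested genes 8.64% rose and 6.5% fell. The median log2 fold changes were 0.22 with an E-box and 0.50 without. Epithelial markers with no promoter in the table are not in these counts. A match in letters is a description and does not show binding.

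Epithelial genes at large moved more often up than down. Of 55 listed epithelial markers 38 were tested, 10 rose, 1 fell and 27 did not pass edgeR, against the background of 8.64% higher and 6.5% lower. With no overlap between groups, 15 were higher and 3 lower, where 23.5% and 24.1% of all genes were. Their median log2 fold change was 0.32, and 0.37 without knockout-labelled replicate 1. The list shares CDH1, OCLN, CLDN1, DSP, KRT8 and KRT19 with the reported SNAI2 targets.

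SPINT2, an inhibitor of membrane serine proteases, stood at 0.06502, 0.713 and 0.123 CPM in WT and 1.41, 11.4 and 7.03 CPM in knockout-labelled replicates 1 to 3 (4.40 ± 0.97, edgeR adjusted p = 0.0259). CD24, a glycoprotein of the cell surface, rose evenly, from 2.15, 2.38 and 2.82 CPM to 17.4, 15.3 and 14.5 CPM (2.68 ± 0.21, edgeR adjusted p = 0.000606). LSR, a receptor of tricellular junctions, stood at 9.88, 12.7 and 11.3 CPM and 21.96, 49.2 and 42.4 CPM (1.75 ± 0.30, edgeR adjusted p = 0.0121). MARVELD3, a tight junction membrane protein, was the listed epithelial marker that fell, from 2.99, 3.62 and 4.59 CPM to 1.41, 1.700 and 1.44 CPM (-1.30 ± 0.29, edgeR adjusted p = 0.0259). SPINT2, LSR and MARVELD3 lost their calls without any 1 of the WT libraries, SPINT2 also without knockout-labelled replicate 2 or 3 and MARVELD3 without replicate 3. KRT18, the partner of KRT8, was at 43.3 to 50.6 CPM in WT and 39.9 to 52.7 CPM in the knockout-labelled libraries (0.06 ± 0.16, edgeR adjusted p = 0.822).

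Many epithelial genes stayed near 0 in both groups. CLDN3, CLDN6, CLDN7, KRT7 and KRT19 had at most 3 counts in any library, and PROM1 and EVPL had 0 in all. The epithelial markers called higher numbered 5, 4 and 3 without WT replicates 1, 2 and 3, and 16 of 40 tested, with 4 lower, without knockout-labelled replicate 1. Over all genes 417, 426 and 401 were higher without WT replicates 1, 2 and 3, against 1507 with all libraries. Without knockout-labelled replicate 1, 22.3% of all tested genes were higher and 21.7% lower. CLDN1, CD24 and PKP2, a desmosomal plakophilin named here after its values were seen, passed whichever library was left out.

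**Figure D2:**
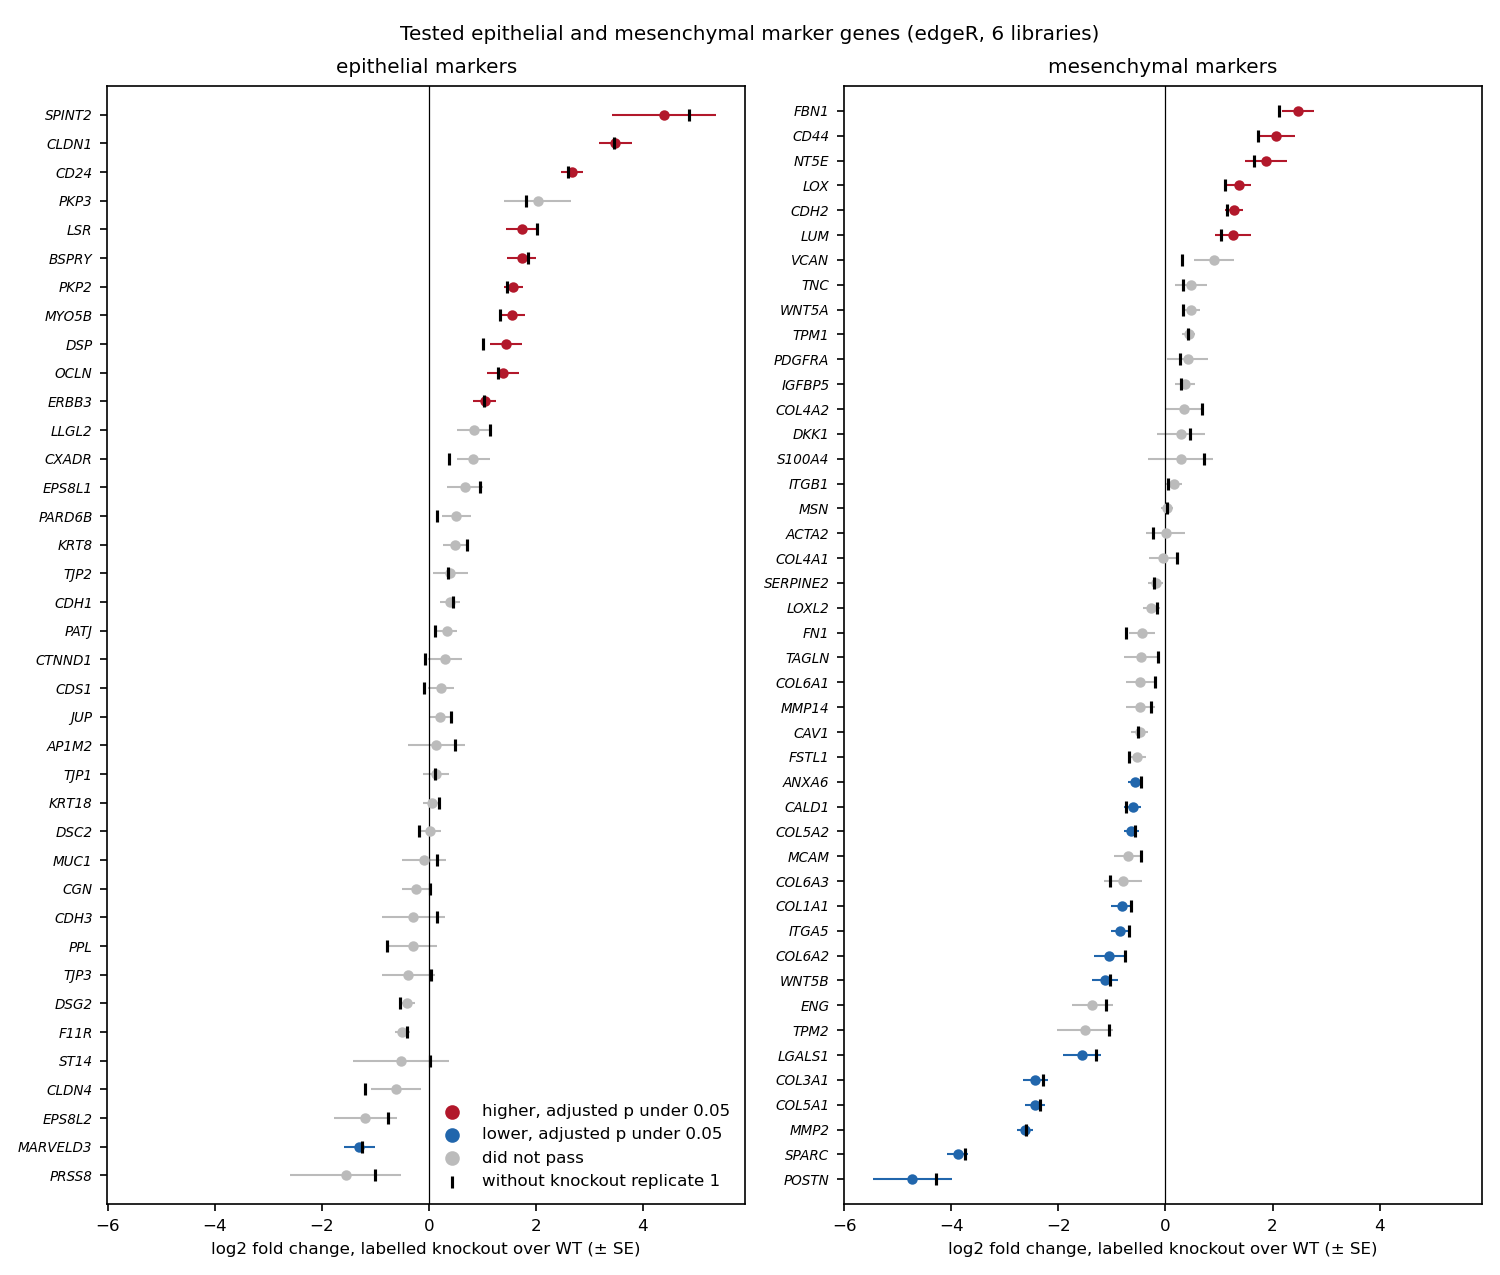
Log2 fold change (knockout-labelled over WT, horizontal axis, ± standard error) of the 38 tested epithelial and 44 tested mesenchymal markers, ordered by change; red and blue points passed edgeR at an adjusted p under 0.05, and black ticks are values without knockout-labelled replicate 1. Rises outnumber falls among epithelial markers (10 and 1), and falls outnumber rises among mesenchymal markers (13 and 6).

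Epithelial transcription and splicing factors were listed separately. Of 22, 9 were tested, 2 rose, 1 fell and 6 did not pass, where 8.64% of all genes rose and 6.5% fell, and their median log2 fold change was -0.048. That median rested on knockout-labelled replicate 1 and was 0.39 without it. Then 10 were tested, 2 rose and 2 fell, where 22.3% of all genes rose and 21.7% fell. Relative to the WT mean, the list's median log2 CPM was -0.50, 0.39 and 0.24 in knockout-labelled replicates 1 to 3. FOXA1, a pioneer factor of endodermal and luminal epithelia, rose from 2.28, 2.49 and 2.94 CPM in WT to 31.5, 26.8 and 26.5 CPM in knockout-labelled replicates 1 to 3 (3.45 ± 0.19, edgeR adjusted p = 0.000183). It was high in all 3 and passed whichever library was left out. GRHL1, a paralogue of GRHL2 that acts on desmosomal genes, rose from 4.36, 4.75 and 5.698 CPM to 13.7, 10.4 and 13.3 CPM (1.33 ± 0.21, edgeR adjusted p = 0.00845), and did not pass without WT replicate 1 or 2. KLF5, a factor of proliferating epithelia, fell from 36.3 to 37.97 CPM to 19.7 to 28.8 CPM (-0.64 ± 0.17, edgeR adjusted p = 0.0481), a call that survived the removal of knockout-labelled replicate 1 and of no other library.

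Other guardians of the epithelial state were scarcely expressed. GRHL3 was at 0.796 to 2.15 CPM in WT and 0.961 to 1.68 CPM in the knockout-labelled libraries (edgeR adjusted p = 0.898). OVOL2 was at 0.297 to 0.715 CPM and 0.07395 to 1.15 CPM (edgeR adjusted p = 0.974), and the splicing regulator ESRP2 at 0.715 to 1.23 CPM and 0.3698 to 1.38 CPM (edgeR adjusted p = 0.899). The direction of GRHL3, OVOL2 and ESRP2 changed with the libraries used. OVOL1 had at most 3 counts per library. ESRP1, the paralogue of ESRP2, missed the filter, at 0.119 to 0.455 CPM in WT and 0.666 to 1.02 CPM in the knockout-labelled libraries, and did not pass without the filter (edgeR adjusted p = 0.298).

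Mesenchymal genes moved in both directions. Of 56 listed markers 44 were tested, 6 rose, 13 fell and 25 did not pass edgeR, where 8.64% of all tested genes rose and 6.5% fell. With no overlap between groups 9 were higher and 22 lower, against 23.5% and 24.1% of all genes. Their median log2 fold change was -0.44, and -0.21 without knockout-labelled replicate 1. SPARC, a matrix protein that binds collagen, fell from 73.9, 70.1 and 74.9 CPM in WT to 3.92, 5.89 and 4.93 CPM in knockout-labelled replicates 1 to 3 (-3.89 ± 0.19, edgeR adjusted p = 0.00012). The gelatinase gene MMP2 fell from 37.6, 35.3 and 39.03 CPM to 5.92, 6.31 and 5.83 CPM (-2.63 ± 0.15, edgeR adjusted p = 0.000193). Both were low in each knockout-labelled library.

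The fibrillar collagen genes COL5A1 and COL3A1 fell as well. COL5A1 was at 49.2 to 51.02 CPM in WT and 7.99 to 11.3 CPM in the knockout-labelled libraries (-2.44 ± 0.18, edgeR adjusted p = 0.000539), and COL3A1 at 16.8 to 17.95 CPM and 2.51 to 4.19 CPM (-2.43 ± 0.23, edgeR adjusted p = 0.00132). CDH2, N-cadherin, whose rise is the usual sign of a mesenchymal state, went the other way, from 38.6, 36.5 and 39.7 CPM to 111, 80.4 and 87.3 CPM (1.28 ± 0.16, edgeR adjusted p = 0.00395). It passed whichever library was left out.

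Other mesenchymal genes also rose. FBN1, the microfibril protein fibrillin, was at 4.72 to 6.18 CPM in WT and 45.7, 22.8 and 25.97 CPM in knockout-labelled replicates 1 to 3 (2.48 ± 0.30, edgeR adjusted p = 0.00329). CD44, a hyaluronan receptor, went from 0.9103 to 1.35 CPM to 3.79 to 7.099 CPM (2.06 ± 0.36, edgeR adjusted p = 0.0117), and NT5E (CD73), an ectonucleotidase, from 0.4901 to 0.7803 CPM to 1.68 to 3.18 CPM (1.87 ± 0.39, edgeR adjusted p = 0.0215). LOX, which cross-links collagen, went from 15.4 to 17.1 CPM to 33.1 to 57.2 CPM (1.37 ± 0.23, edgeR adjusted p = 0.0103). CD44, NT5E and LOX lost their calls without any 1 of the WT libraries. FN1, fibronectin, stood at 74.3, 87.6 and 76.8 CPM in WT and 82.3, 47.2 and 47.3 CPM in knockout-labelled replicates 1 to 3. Replicate 1 lay among the WT libraries and the others below them (-0.43 ± 0.24, edgeR adjusted p = 0.248), and without replicate 1 the change was -0.74 (edgeR adjusted p = 1.63e-07). LUM rose too (edgeR adjusted p = 0.0455), a call lost without any 1 of the WT libraries or knockout-labelled replicate 3, and was the one gene called on the list of stromal, endothelial and blood markers, whose part in these results was not tested.

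The mesenchymal counts depended on the libraries. Without any 1 of the WT libraries 2 rose and 5 fell, without knockout-labelled replicate 3 the falls numbered 5, and without knockout-labelled replicate 1 11 of 47 tested rose and 20 fell. Calls over all genes moved with the same settings. Without 1 WT library 401 to 426 genes rose and 243 to 246 fell, against 1507 and 1134 with all libraries. Without knockout-labelled replicate 3, 776 rose and 397 fell. Without knockout-labelled replicate 1, 22.3% of all tested genes rose and 21.7% fell. SPARC, MMP2, COL5A1, COL3A1, CDH2 and FBN1 passed whichever library was left out, as did POSTN, a matrix protein at 0.858 to 1.96 CPM in WT and 0 to 0.0607 CPM in the knockout-labelled libraries, named here after its values were seen.

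Library by library, the median log2 CPM of the tested epithelial markers relative to each gene's WT mean was 0.33, 0.34 and 0.21 in knockout-labelled replicates 1 to 3. That of the mesenchymal markers was -0.43, -0.33 and -0.21, and that of all tested genes -0.037, 0.0053 and -0.0038. WT libraries lay between -0.023 and 0.016 for both lists, close to 0 because the shift is taken from their own mean. Each knockout-labelled library thus had the marker lists on opposite sides of the median gene, although single members such as CDH2 and MARVELD3 went the other way.

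**Figure D3:**
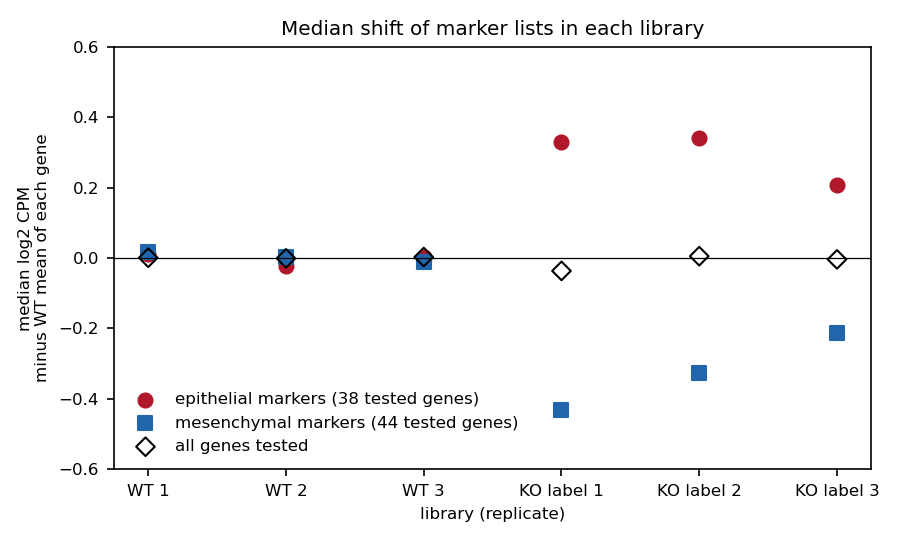
Median over tested list genes of log2 CPM minus the gene's WT mean (vertical axis) in each of the 6 libraries, for epithelial markers (circles), mesenchymal markers (squares) and all genes tested (diamonds). Epithelial medians are 0.21 to 0.34 and mesenchymal medians -0.43 to -0.21 in the knockout-labelled libraries.

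Beyond the members, 32 further EMT and neural crest transcription factors were listed, of which 25 were tested, 3 rose, 0 fell and 22 did not pass, where 8.64% of all genes rose and 6.5% fell. The count rested on knockout-labelled replicate 1. Without it 12 of 26 tested rose and 2 fell, where 22.3% of all genes rose and 21.7% fell. Relative to the WT mean, the list's median log2 CPM was -0.16, 0.24 and 0.28 in knockout-labelled replicates 1 to 3. PRRX1, a homeobox factor of limb and cranial mesenchyme and a known inducer of EMT, was nearly absent from WT, at 4, 4 and 1 counts, and reached 274, 235 and 260 counts in knockout-labelled replicates 1 to 3. In CPM the knockout-labelled libraries stood at 14.3 to 20.3 CPM and WT at 0.0613 to 0.2601 CPM (6.43 ± 0.40, edgeR adjusted p = 0.000267), and the call held whichever library was left out. TFAP2A, a neural crest and ectodermal factor, rose from 20.7 to 27.8 CPM to 45.8 to 57.7 CPM (1.07 ± 0.17, edgeR adjusted p = 0.00946). SOX4, a factor of progenitor cells, rose from 185 to 188 CPM to 249 to 324 CPM (0.65 ± 0.14, edgeR adjusted p = 0.0256). TFAP2A and SOX4 lost their calls without any 1 of the WT libraries, and SOX4 also without knockout-labelled replicate 2 or 3.

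Of 19 listed corepressor genes of Snail and ZEB proteins 18 were tested, 2 rose, 1 fell and 15 did not pass, with a median log2 fold change of -0.053. That is near the background of 8.64% higher and 6.5% lower. Without knockout-labelled replicate 1, 4 of the 18 rose and 5 fell, with a median of 0.032, where 22.3% of all genes rose and 21.7% fell. LIMD1, an Ajuba-family LIM protein, rose from 39.9, 42.3 and 42.7 CPM to 93.8, 91.7 and 80.7 CPM (1.09 ± 0.13, edgeR adjusted p = 0.00329) and passed whichever library was left out. RCOR1 (CoREST) rose from 59.4 to 63.7 CPM to 104 to 138 CPM (0.93 ± 0.16, edgeR adjusted p = 0.0103), and the deacetylase gene HDAC1 fell from 514 to 529.9 CPM to 315 to 396 CPM (-0.51 ± 0.14, edgeR adjusted p = 0.0474). RCOR1 and HDAC1 lost their calls without any 1 of the WT libraries, and HDAC1 also without knockout-labelled replicate 2 or 3. Of 17 genes that control Snail protein turnover, all tested, 1 rose and 0 fell, again near the 8.64% and 6.5% over all genes. It was the ubiquitin ligase gene FBXW7, which went from 18.3 to 20.7 CPM to 30.4 to 37.6 CPM (0.85 ± 0.15, edgeR adjusted p = 0.0131) and lost its call without any 1 of the WT libraries. Without knockout-labelled replicate 1, 4 of these 17 genes rose and 4 fell, near the 22.3% and 21.7% over all genes. The list's median log2 fold change went from 0.18 to -0.0052.

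Among 32 genes of signals that induce SNAI2 (TGF-beta, BMP, Notch, WNT and others), 31 were tested, 2 rose, 3 fell and 26 did not pass, with a median log2 fold change of 0.12. These counts lie near the 8.64% higher and 6.5% lower over all genes, so the called genes are given as single values only. HEY1, a Notch target and repressor, fell from 474, 437 and 468 CPM to 233, 226 and 226 CPM (-1.01 ± 0.12, edgeR adjusted p = 0.00295) and passed whichever library was left out. The Notch receptor gene NOTCH3 fell from 168 to 175 CPM to 72.8 to 122 CPM (edgeR adjusted p = 0.0479), and the Hippo pathway coactivator gene YAP1 from 71.6 to 81.1 CPM to 50.3 to 52.6 CPM (edgeR adjusted p = 0.0286). The WNT effector gene LEF1 rose from 18.1 to 21.7 CPM to 39.6 to 48.2 CPM (edgeR adjusted p = 0.00572), and the type II TGF-beta receptor gene TGFBR2 from 16.1 to 18.2 CPM to 30.8 to 35.3 CPM (edgeR adjusted p = 0.00744). NOTCH3, YAP1 and TGFBR2 lost their calls without any 1 of the WT libraries, and LEF1 without WT replicate 1. NOTCH3 also lost its call without knockout-labelled replicate 3, and YAP1 without replicate 2 or 3. Of 5 transcripts that host EMT microRNAs 2 were tested. MIR200CHG, a host of miR-200 family members that target ZEB1 and ZEB2, had 0 counts in all libraries. MIR34AHG fell from 31.2 to 33.1 CPM to 4.22 to 14.1 CPM (edgeR adjusted p = 0.0415), a call that survived the removal of knockout-labelled replicate 1 and of no other library.

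The neighbours of SNAI2 on chromosome 8 were read by position. Within 5 Mb of SNAI2 10 other protein-coding genes were tested, of which 1 rose and 1 fell, with a median log2 fold change of -0.25, where 15.1% of all tested genes passed in either direction. On the side of lower coordinates the 3 nearest were UBE2V2 (0.85 Mb away, -0.25), the replication helicase gene MCM4 (0.94 Mb, -0.48 ± 0.13, edgeR adjusted p = 0.0471) and PRKDC (0.96 Mb, 0.44). On the other side they were PCMTD1 (2.90 Mb, -0.35), ALKAL1 (3.61 Mb, 0.24) and RB1CC1 (3.70 Mb, -0.03). Without knockout-labelled replicate 1 the changes were -0.41 for UBE2V2, -0.40 for MCM4 and -0.19 for PRKDC. For PCMTD1, ALKAL1 and RB1CC1 they were then -0.47, 0.67 and -0.45. PRKDC stood at 4229 CPM in that replicate and at 1574 and 1583 CPM in replicates 2 and 3. The gene that rose was CEBPD, a transcription factor of stress and differentiation (3.31 ± 0.59, edgeR adjusted p = 0.0130). Without any 1 of the WT libraries CEBPD and MCM4 did not pass (edgeR adjusted p from 0.0644 to 0.197), nor did MCM4 without knockout-labelled replicate 2 or 3.

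**Figure D4:**
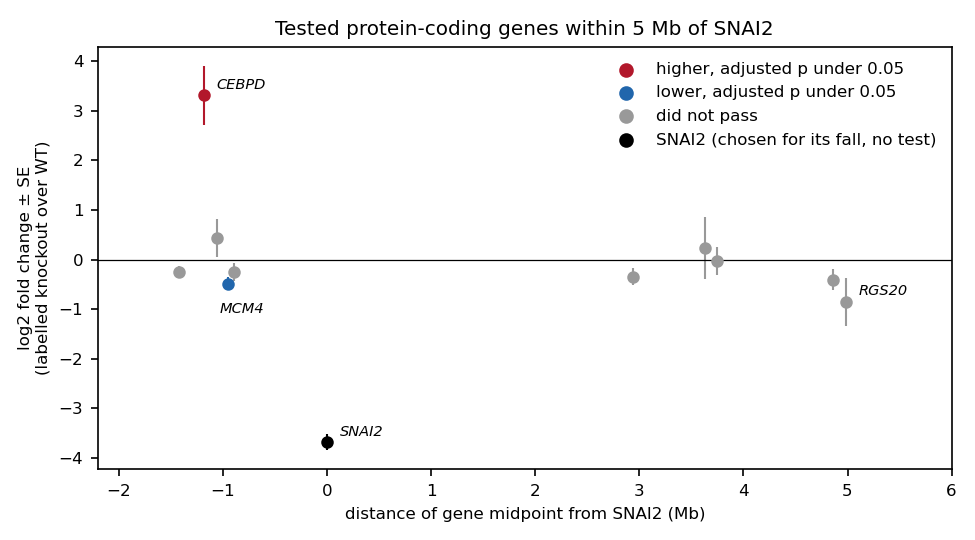
Log2 fold change (knockout-labelled over WT, vertical axis, ± standard error) of tested protein-coding genes by distance of their midpoint from that of SNAI2 in Mb. SNAI2 lies at -3.67 and CEBPD at 3.31, while the 9 other genes lie between -0.85 and 0.44.

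The protein-coding genes with the profile most like that of SNAI2 over the 6 libraries, by Euclidean distance between centred log2 CPM values, were CUL9, ADGRD2, SNX19, PTGIS and MPZL2, at distances from 0.435 to 0.669. CUL9, a cullin, stood at 51.6, 59.7 and 53.4 CPM in WT and 3.77, 3.22 and 4.03 CPM in knockout-labelled replicates 1 to 3. PTGIS, the prostacyclin synthase gene, went from 7.803, 7.84 and 6.98 CPM to 0.592, 0.607 and 0.782 CPM, and MPZL2, an adhesion molecule gene, from 11.1, 9.68 and 10.5 CPM to 1.26, 0.9105 and 1.08 CPM. ADGRD2 had 26, 28 and 20 counts and SNX19 28, 18 and 23 counts in WT and 0 in the knockout-labelled libraries, and their place on this scale depends on the prior count of 2 added before the logarithm. The likeness rests on 6 libraries in 2 groups and is a description.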

How the data were processed

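The deposited files hold raw counts of reads per gene, 1 table for each library, with no normalisation by the authors. Tools named in the submitters' processing notes include HISAT2 2.2.1 and HTSeq 0.12.4, with GRCh38 as the build, and no options are given. Per the labels' protocols, mRNA was selected on poly-T beads. Reads in no feature (8.75% to 15.9%) and ambiguous reads (9.74% to 12.5%) were left out. Mitochondrial coverage files were not used.

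Ensembl identifiers were paired with symbols, and a RefSeq table of GRCh38.p14 gave coordinates for 86.5% of tested genes. The test was edgeR 4.0.16 under R 4.3.3 (TMM, filterByExpr, quasi-likelihood F test, group as the only term, Benjamini-Hochberg adjustment over 17452 genes at 0.05). CPM used TMM library sizes, and log2 CPM a prior count of 2. Values after ± are SD (n = 3) where they follow a CPM level and standard errors where they follow a log2 fold change. These standard errors were derived from the test, as the absolute log2 fold change over the square root of the F statistic. Fold changes are knockout-labelled over WT. The members and the 11 other lists were chosen with earlier results of these data known.

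Named were the 10 members, 13 further EMT genes, up to 4 called genes per list and direction with at least 2 CPM in the higher group, the 5 genes most like SNAI2, and 3 neighbours on each side. Alternatives were DESeq2 1.42.0, limma-voom (limma 3.58.1), other scalings and filters, removal of mitochondrial genes, the replicate number as a block, and omission of each library in turn. On simulated data for this comparison (17017 genes), the test recovered 49% of 2-fold and 90% of 4-fold changes and made 3 false calls, in a simulation with no library that stands apart. No pair of libraries in a group was a duplicate by a chi-square comparison of counts (at least 2.56 per degree of freedom). Before scaling, 1 count was worth 0.0614 to 0.0667 CPM.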

Additional observations from a re-analysis of the deposited data

How the results depend on the processing

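Of the results for single EMT genes, 241 values under an alternative kept their direction and side of the threshold, 5 lost a call, 5 gained one and 14 changed direction, the last in genes that did not pass; the cause was not tested. With 1 library left out TWIST1 ranged from -0.76 to 0.099, VIM from -0.022 to 0.27, KRT18 from -0.0066 to 0.19, ESRP2 from -0.18 to 0.50, GRHL3 from -0.41 to 0.23 and OVOL2 from -1.43 to 0.43. ESRP2 was at -0.020 by limma-voom.

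Over all genes, DESeq2 called 2340 higher and 1866 lower, against 1507 and 1134 by edgeR. Leaving out 1 library gave 401 to 4048 higher and 243 to 3927 lower, the lowest without WT replicate 3 and the highest without knockout-labelled replicate 1. Members called beside SNAI2 numbered 1 with no low-count filter (TWIST2) and 0 to 4 with 1 library left out. The 4 came without knockout-labelled replicate 1, where 44% of all tested genes were called in either direction. Epithelial markers called higher were 3 to 16, and lower 0 to 4, with 1 library left out, and DESeq2 called 2 lower. Mesenchymal markers called higher were 2 to 11 and lower 5 to 20 with 1 library left out. With the replicate number as a block, 610 genes were higher and 359 lower, 9 epithelial markers were higher and 0 lower, and 3 mesenchymal markers were higher and 5 lower. Deviations from the group means of same-numbered libraries correlated at -0.059, -0.029 and 0.0022 for replicates 1 to 3, so the numbers were not taken as pairs. GRHL2, ESRP1 and OVOL1 had few counts in every library and missed the low-count filter over all 6, and TWIST2 missed it with 4 counts in WT replicate 1 against 68 and 66 in the other WT libraries.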

Other observations

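TWIST2 set WT replicate 1 apart in a way that few genes did. Among all genes, a count was made of those in which 1 library lay at least 8-fold below both others of its group, with at least 50 counts in each of these, a rule chosen after the values of TWIST2 were seen. For WT replicate 1 TWIST2 was the single such gene. The number was 1 for WT replicate 2, 0 for WT replicate 3, 40 for knockout-labelled replicate 1 and 0 for knockout-labelled replicates 2 and 3. Genes at least 8-fold above both others, with at least 50 counts in the library itself, were also counted. They numbered 2, 2 and 1 for WT replicates 1 to 3 and 3, 1 and 0 for knockout-labelled replicates 1 to 3.

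Among the listed genes of the HEK-293 line, calls went both ways. Of 7 tested 1 rose, 2 fell and 4 did not pass, where 8.64% of all genes rose and 6.5% fell. WT1, a zinc finger factor of kidney development, stood at 6.37, 4.395 and 5.02 CPM in WT and 16.1, 17.5 and 16.7 CPM in knockout-labelled replicates 1 to 3 (1.67 ± 0.20, edgeR adjusted p = 0.00298). EYA1, a cofactor in nephron progenitors, was at 17.2 to 21.4 CPM in WT and 5.83 to 8.36 CPM in the knockout-labelled libraries (-1.41 ± 0.21, edgeR adjusted p = 0.0061), and the neurofilament gene NEFL at 189 to 199.9 CPM and 60.96 to 85.4 CPM (-1.48 ± 0.17, edgeR adjusted p = 0.00252). WT1, EYA1 and NEFL passed whichever library was left out.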
